A study of Mus musculus with 8 samples.

Results

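Of the 45281 probes on Mouse WG-6 v2.0 arrays of Illumina, 553 that lie in short interspersed elements (SINEs) were examined here. They were taken as the probes annotated with the repeat class SINE in the repeat probe list of the study, and were joined to the array values by probe identifier. The copy of that list used here holds 1430 repeat probes and is slightly shorter than the full list. The study counted slightly more SINE probes on this array than the 553 used here. Each probe is 50 bases long and was listed by the study because its best match in the mm9 mouse genome lies in a RepeatMasker element and reads its sense strand. The list names a family and an element for each probe, which gives 197 Alu (B1) probes from 14 elements, 148 B2 probes from 5 elements, 161 B4 probes from 4 elements, 9 ID probes from 4 elements and 38 MIR probes from 5 elements. The arrays hold RNA from whole testes of male C57BL/6 mice at 16 dpp (days post partum), from 4 Tex19.1-/- animals and from 4 Tex19.1+/- control animals, each hybridized to its own array and numbered from 1 to 4 within its genotype. Tex19.1 is a mammal-specific gene of germ cells and pluripotent cells, and the study used these arrays to ask which repetitive elements change in its absence.

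SINEs are short retrotransposons that encode no protein. They are copied into RNA by RNA polymerase III from an internal promoter made of an A box and a B box, and they depend on the enzymes of LINE elements to be inserted into new sites. Mouse B1 elements, which RepeatMasker places in the Alu family, derive from the RNA of the signal recognition particle, B2 and ID elements derive from tRNAs, B4 elements join an ID-like part to a B1-like part, and MIR elements are old, degraded elements shared by all mammals. Many SINE copies also lie in introns and in the ends of genes transcribed by RNA polymerase II, so a SINE probe can detect RNA of the gene that holds the copy as well as RNA of the element itself. Which of these sources gave the signal of a probe was not determined here.

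The probes of a family share only short stretches, and the sequences shown here give the most widely held stretch of 8 bases in the Alu and B2 families, in capitals, within 30 bases of the expressed probes of highest signal that hold it. AGGCCAGC is in 23 of 197 Alu probes (11.7%), in 2 of the 356 probes of other SINE families and, on either strand, in 2.66% of 32851 RefSeq promoter windows of GRCm38.p6. The 4 Alu probes are on transcripts annotated to genes of chromosomes 11, 14, X and 10, in the order shown.
Rpl23, B1_Mus1: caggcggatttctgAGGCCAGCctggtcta
Nisch, PB1D7: ccatgagttcaAGGCCAGCctgctgacaaa
Rragb, B1F: ctgcaagtttaAGGCCAGCctgtctacata
Prf1, B1_Mur3: ctatgagttcgAGGCCAGCctgggtctaca

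CTCTTCTG is in 19 of 148 B2 probes (12.8%), in 0 of the 405 SINE probes of other families and in 3.16% of the promoter windows. The 4 B2 probes shown, 3 of them from the young element B2_Mm2, are annotated to genes of chromosomes 11, 9, 1 and 3. The bases just before the capitals are alike in the Irgm1 and Pts probes, and the bases around them differ more in the Slc11a1 and Etfdh probes.
Irgm1, B2_Mm2: cgtagtgagatctgatgccCTCTTCTGaga
Pts, B2_Mm2: atctgatgccCTCTTCTGgcatgtagttgt
Slc11a1, B2_Mm2: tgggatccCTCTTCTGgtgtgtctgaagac
Etfdh, B3: gatctaccaccCTCTTCTGgcctctgaagc

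SINE probes shared little sequence with each other. The longest stretch that a probe shared with any other SINE probe had a median of 12 bases, and it was shorter than 20 bases for 536 of 553 probes (96.9%). At the other end, the B3 probes of Timm8a2 share 48 bases, as do the ID_B1 probes of Ift57, which no array detected. All 5 families had a median GC content of 54%, with single probes between 34% and 62%. The B box core GTTCGANNC, searched on both strands, was in 5 of 553 SINE probes (0.904%), against 1 of 877 other repeat probes of the same length (0.114%) and 0.843% of the longer promoter windows. TGGCNNA, the start of the A box, was in 63 SINE probes (11.4%) and in 10.6% of the other repeat probes, and the polyadenylation signal AATAAA was in 1 SINE probe, of the MIR family, and in 2.39% of the other repeat probes. A stretch of 20 bases or more of 51 SINE probes (9.22%) occurred in at least 1 promoter window, in up to 57 genes for a single probe, and these were 24 Alu, 19 B2, 8 B4, 0 ID and 0 MIR probes.

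About as many SINE probes gave a signal in these testes as probes did over the whole array. With a probe called expressed when its detection p was under 0.01 in at least 1 array, 236 of 553 SINE probes (42.7%) from 30 of the 32 elements were expressed, against 42.2% of all probes on the array. The share was 46.7% for Alu, 43.9% for B2, 36.6% for B4, 33.3% for ID and 44.7% for MIR. Detection in all 8 arrays was less common, with 49 Alu, 31 B2, 23 B4, 2 ID and 7 MIR probes, so that 47.5% of the expressed SINE probes were detected in every animal, against 60.6% of all 19089 expressed probes. Each control array detected between 150 and 183 SINE probes and each Tex19.1-/- array between 145 and 168. Between arrays of 1 genotype, the log2 signals of the 236 probes correlated at 0.949 or more.

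Most SINE probes gave a signal near the detection limit. The median log2 signal, after quantile normalization, was 6.21 for the expressed SINE probes, 6.12 for 95 LINE probes, 6.23 for 123 LTR probes and 6.63 for all expressed probes. By family it was 6.46 for Alu, 6.24 for B2, 6.06 for B4, 6.38 for ID and 5.98 for MIR, and only 2 SINE probes (0.847%) had a mean above 10, against 5.99% of all expressed probes. These are signals of different probes, which bind with different strength, so their order does not rank the amounts of RNA. The 317 SINE probes below the detection limit had means between 3.84 and 5.93.

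**Figure D1:**
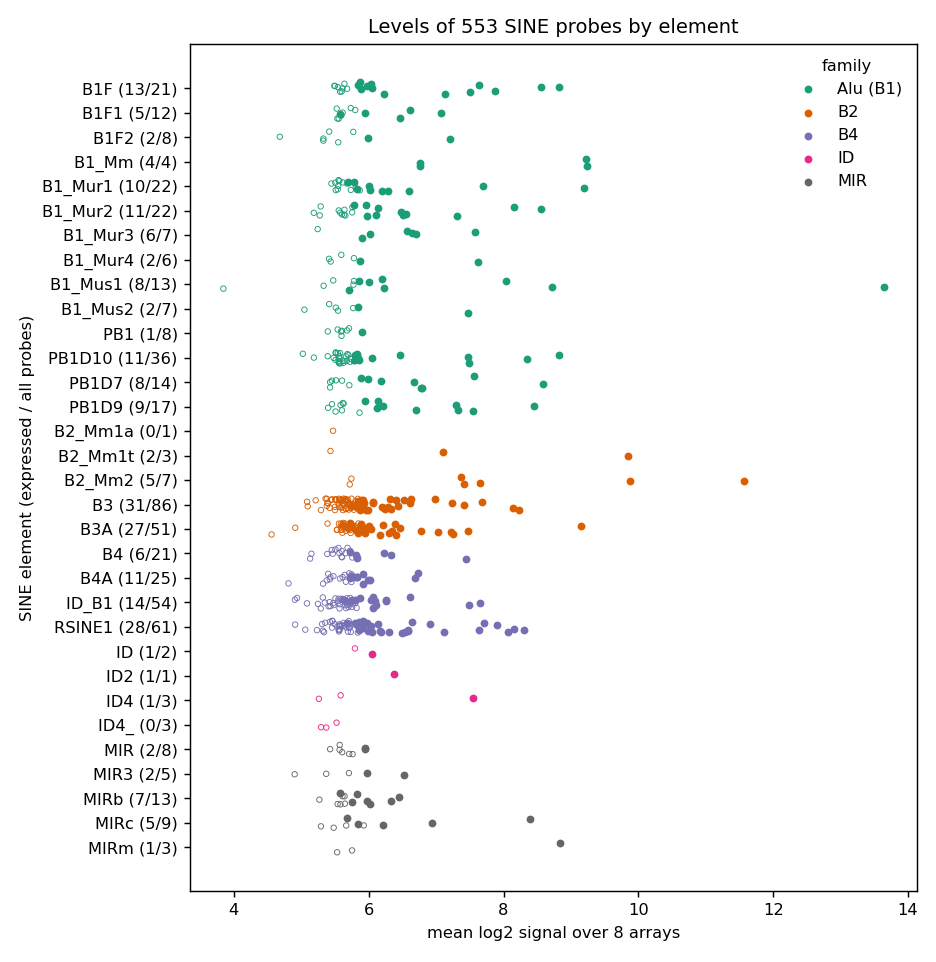
Mean log2 signal over the 8 arrays for each of the 553 SINE probes (horizontal axis), by element (vertical axis, with the number expressed and the number of all probes), coloured by family. Filled points are expressed probes and open points are probes that no array detected. Most points lie near the detection limit around 6, and the brightest probes of B1_Mm, B2_Mm1t and B2_Mm2 reach 9.23 or more, behind only the Rpl23 probe of B1_Mus1 at 13.64.

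The probes of the young mouse elements B1_Mm, B2_Mm1a, B2_Mm1t and B2_Mm2 were detected more often than the other SINE probes, a difference that was not tested. Of these 15 probes, 11 were expressed, all 11 in all 8 arrays, against 225 of the 538 other SINE probes (41.8%). Their median log2 signal was 7.64 when expressed, against 6.18 for the other expressed SINE probes. A stretch of 20 bases or more of 11 of the 15 probes occurred in at least 1 promoter window. Over all SINE probes, 32 of the 51 with such a stretch were expressed (62.7%), against 204 of 502 without one (40.6%), and the part of this in the detection of the young elements was not tested.

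All 4 B1_Mm probes were detected in every animal. The probe annotated to Srr, which encodes serine racemase, had log2 signals of 9.53, 9.39, 9.18 and 8.97 in controls 1 to 4 and of 9.28, 9.12, 9.15 and 9.23 in Tex19.1-/- animals 1 to 4. ILMN_2899599, which has no gene name, had 9.12, 9.32, 9.05 and 8.90 in the controls and 9.41, 9.76, 9.13 and 9.13 in the Tex19.1-/- animals. The genotypes overlapped at both probes. The log2 change, Tex19.1-/- minus control, was -0.07 at Srr and 0.26 at ILMN_2899599, with standard errors of 0.12 and 0.15 and adjusted p-values of 0.85 and 0.47 from limma. The B1_Mm probe of Zxda, a zinc finger gene of the X chromosome annotated as a transcribed pseudogene, had a mean signal of 6.77. That of Deptor, which encodes an inhibitor of the mTOR kinase, had 6.76. Both probes had changes of 0.05.

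B2_Mm2 gave the strongest signal of the B2 family. ILMN_2858523, with no gene name, had log2 signals of 11.79, 11.82, 11.46 and 11.17 in controls 1 to 4 and of 11.64, 11.66, 11.28 and 11.70 in the Tex19.1-/- animals. The B2_Mm2 probe of Irgm1, an interferon-induced GTPase, had 10.11, 9.99, 9.73 and 9.29 in the controls and 10.06, 10.12, 9.65 and 10.05 in the Tex19.1-/- animals. ILMN_2720718, a probe of B2_Mm1t with no gene name, had 10.19, 9.96, 9.82 and 9.48 in the controls and 9.92, 10.10, 9.36 and 9.92 in the Tex19.1-/- animals. Control 4 and Tex19.1-/- animal 3 were the lowest of their genotype at all 3 probes, and the genotypes overlapped at each. The log2 changes were 0.01, 0.19 and -0.04, with standard errors of 0.15, 0.17 and 0.17 and adjusted p-values of 0.99, 0.67 and 0.96 from limma.

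The remaining probes of these young B2 elements were weaker. Among the B2_Mm2 probes, those of Slc11a1, a metal transporter of macrophage phagosomes, Pts, an enzyme of tetrahydrobiopterin synthesis, and the X-linked protein kinase gene Prkx had mean log2 signals of 7.41, 7.64 and 7.37. Their log2 changes were 0.14, 0.02 and 0.18. The B2_Mm1t probe of Pdhb, a subunit of pyruvate dehydrogenase, had a mean of 7.09 and a change of -0.08. Neither the single B2_Mm1a probe, annotated to Arnt, nor the B2_Mm1t probe of Trim43b, nor the B2_Mm2 probes ILMN_1234035 and ILMN_2825301 were detected in any array. Over the 11 expressed probes of the young elements the changes ran from -0.08 to 0.26, and 0 of the 11 had an unadjusted p under 0.05 in limma, which 5.87% of all expressed probes had with a higher and 7.93% with a lower signal.

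**Figure D2:**
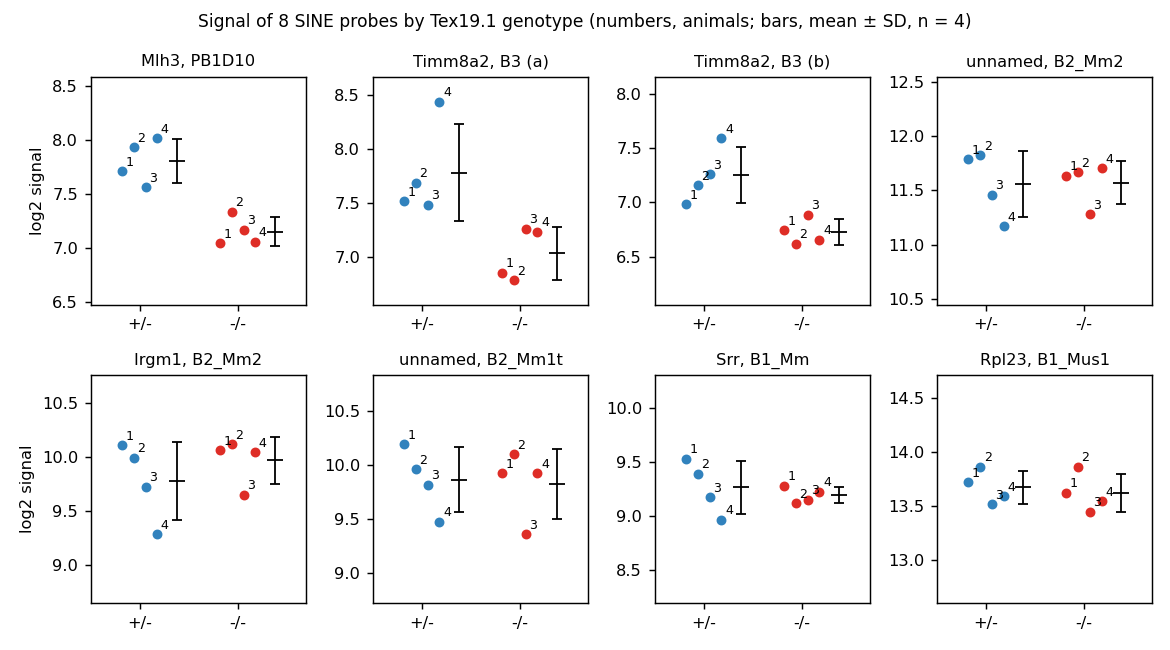
Log2 signal of 8 SINE probes in each animal (points, numbered by animal), with controls in blue and Tex19.1-/- animals in red and the mean ± SD of each genotype beside them (n = 4). Every vertical axis spans the same range. The genotypes do not overlap at Mlh3 (7.56 to 8.02 against 7.04 to 7.34) and the Timm8a2 probes, and they overlap at the 5 bright probes of B1 and B2 elements.

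The brightest SINE probe of all was the B1_Mus1 probe annotated to Rpl23, a protein of the large ribosomal subunit. Its log2 signal was 13.72, 13.86, 13.51 and 13.59 in the controls and 13.62, 13.86, 13.45 and 13.54 in the Tex19.1-/- animals, which overlap, and its log2 change was -0.05 with a standard error of 0.12 (adjusted p = 0.89 from limma). In the MIR family the highest signals were those of the MIRm probe of E2f6, a repressor of the E2F family (mean 8.83, change 0.17), and of the MIRc probes of Mycbp, a MYC-binding protein (8.40, change -0.06), and Avpr1a, a vasopressin receptor (6.94, change 0.26). In the B4 family they were the RSINE1 probes of Pdp2, a phosphatase of pyruvate dehydrogenase (8.30, change 0.32), and Timm29, a mitochondrial import protein (8.16, change 0.03), and ILMN_1257704 with no gene name (8.06, change 0.23). Without control 2 the changes of Pdp2 and ILMN_1257704 were 0.06 and 0.03. Of the 9 ID probes only those of Alg11 and B3gat3, which encode glycosyltransferases, and Prxl2a, a peroxiredoxin-like protein, were expressed, at means of 6.05, 6.38 and 7.54 and with changes of -0.03, 0.11 and -0.15. The ID probes of Fbxo44, Uxt, Herc4 and Cyp24a1 and the unnamed ILMN_1227407 and ILMN_1249209 were detected in no array.

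To ask whether SINE RNA changed in the absence of Tex19.1, each family was averaged over its expressed probes in each animal. The Tex19.1 probe itself was above background in all 4 controls and in 0 of 4 Tex19.1-/- testes, where it was at least 4.33-fold lower (adjusted p = 6.3e-07 from limma). In no family did the means of the animals separate the genotypes. The mean log2 signal was 6.82 ± 0.026 in controls and 6.82 ± 0.018 in Tex19.1-/- animals for Alu (SD, n = 4), 6.62 ± 0.064 and 6.62 ± 0.049 for B2, and 6.35 ± 0.047 and 6.38 ± 0.028 for B4. For ID it was 6.66 ± 0.11 and 6.64 ± 0.077, and for MIR 6.35 ± 0.028 and 6.38 ± 0.016. The differences, Tex19.1-/- minus control, were 0.006, 0.005, 0.024, -0.019 and 0.034 in the same order, below the control SD in each family but MIR. The labels do not say that animals of the same number form pairs. Between animals of the same number, the MIR difference was 0.014, 0.031, 0.038 and 0.052 for numbers 1 to 4. The other 4 families had differences of both signs. Of the 17 expressed MIR probes, 7 had a change above 0 and 10 a change below 0. With cyclic loess in place of quantile normalization the Alu, B2 and B4 differences were -0.016, -0.026 and -2.8e-05. With each array scaled to 1 median all 5 lay between 0.089 and 0.12 while the median change of all expressed probes was 0.14.

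**Figure D3:**
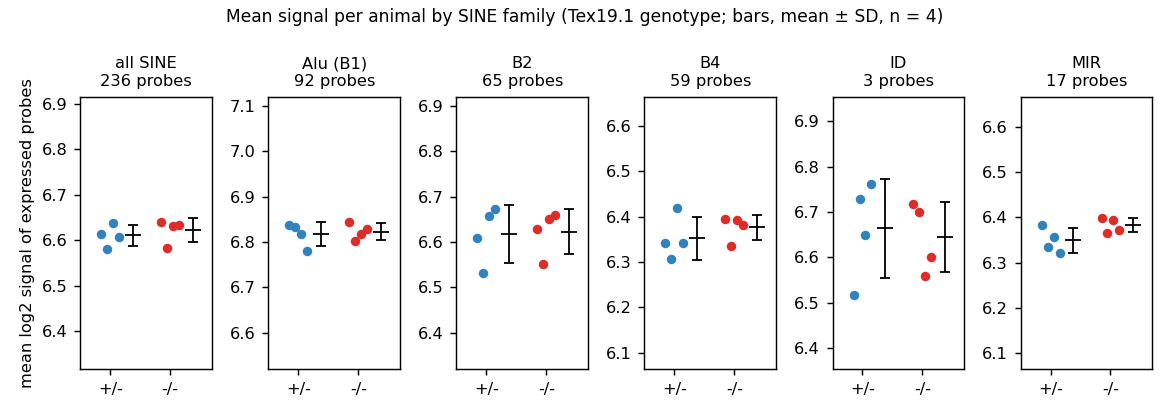
Mean log2 signal of the expressed probes of each SINE family (vertical axes, each spanning the same range) in every control (blue) and Tex19.1-/- animal (red), with the mean ± SD of each genotype (n = 4). The 2 genotypes overlap in all 6 panels, and the widest spread is in the ID family, with 3 probes.

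Single elements gave the same picture. Of 32 elements, 19 had at least 3 expressed probes, and their differences ran from -0.065 for B4A (11 probes) to 0.11 for B2_Mm2 (5 probes). B4A was the 1 element of these 19 whose Tex19.1-/- animals all lay below all controls, with means of 5.98 ± 0.016 and 6.05 ± 0.034 (SD, n = 4), and 0 of the 19 had all Tex19.1-/- animals above. The expressed B4A probes had a median log2 signal of 5.92, near the detection limit, and only 2 were detected in all 8 arrays. Of these 11 probes 5 had a change above 0 and 6 below, the largest being -0.37 at Proser3. The means over B1_Mm (4 probes) were 7.96 ± 0.15 in controls and 8.03 ± 0.10 in Tex19.1-/- animals, and those over B2_Mm2 were 8.72 ± 0.18 and 8.83 ± 0.11. RSINE1 (28 probes) and B3 (31 probes), the elements with the most expressed probes, differed by 0.068 and -0.029 and overlapped.

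Probe by probe, 1 of the 236 expressed SINE probes was called lower in Tex19.1-/- testes by limma, where a call needs an adjusted p of 0.01 or less (0.424%), where 1.63% of all 19089 expressed probes were called lower, and 0 were called higher, where 0.141% of all were. At an unadjusted p under 0.05, 10 SINE probes (4.24%) were lower and 8 (3.39%) were higher, against 7.93% and 5.87% of all expressed probes. Those lower were 4 Alu, 4 B2 and 2 B4 probes and those higher 3 Alu, 3 B2, 1 B4 and 1 MIR probe. They include the B4 probe of Catsperb, lower, and the B1_Mus2 probe ILMN_1236511, higher. Each of these was detected in 1 array, of the genotype where its signal was higher. All 4 Tex19.1-/- animals lay below all 4 controls at 10 SINE probes (4.24%, against 6.06% of all) and above them at 7 (2.97%, against 4.18%). None of the 236 probes changed by 2 fold, 3 changed by 0.5 or more on the log2 scale, and the median log2 change was 0.02, as over all expressed probes. By family the median change was 0.01 for Alu, 0.02 for B2, 0.03 for B4, -0.03 for ID and -0.02 for MIR. The median SD within a genotype was 0.17 at the SINE probes and 0.16 over all expressed probes.

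**Figure D4:**
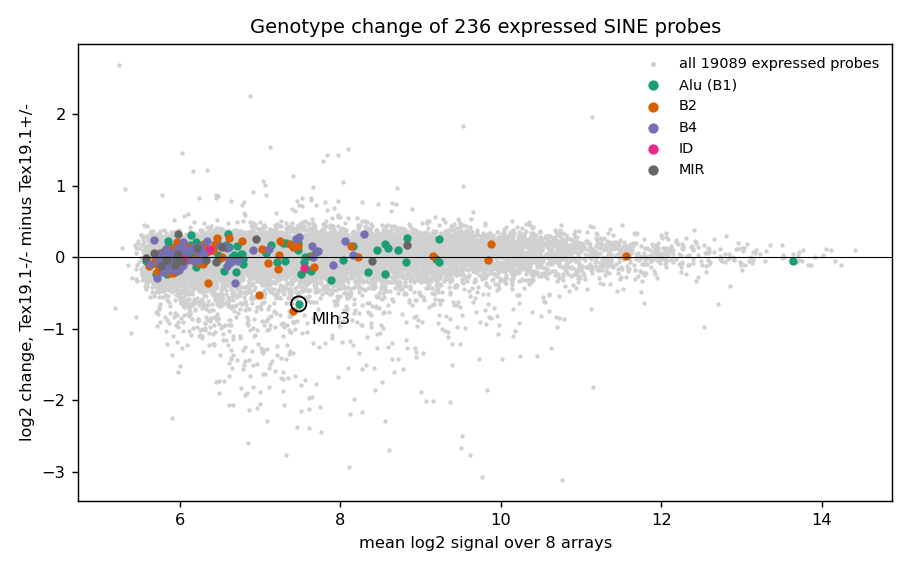
Log2 change, Tex19.1-/- minus control (vertical axis), against the mean log2 signal over 8 arrays (horizontal axis) for the 236 expressed SINE probes, coloured by family, over all 19089 expressed probes in grey. The circled Mlh3 probe, at -0.65, is the 1 SINE probe called by limma, and every SINE probe lies between -0.75 and 0.32.

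The called probe lies in a PB1D10 element, an old B1 monomer of the Alu family, and is annotated to Mlh3 on chromosome 12, which encodes a DNA mismatch repair protein needed for meiotic crossovers. Its longest stretch in common with another SINE probe is 11 bases, in capitals here, and no promoter window held 20 bases of it.
Mlh3, PB1D10: agtacctgggAGGCTGAGACAagtccgtga
The log2 signal was 7.71, 7.93, 7.56 and 8.02 in controls 1 to 4 and 7.04, 7.34, 7.17 and 7.06 in Tex19.1-/- animals 1 to 4. Every Tex19.1-/- animal was below every control. The change was -0.65 with a standard error of 0.12, or 1.57 fold (adjusted p = 0.00734 from limma). The call was lost, with an adjusted p of 0.0161 to 0.0356, without control 1, 2 or 4 or without Tex19.1-/- animal 1, 3 or 4, at changes of -0.58 to -0.70. It was also lost with median scaling (change -0.45, adjusted p = 0.6), with signals under 1 set to 1 (-0.90, adjusted p = 0.0644) and with neqc background correction (-0.80, adjusted p = 0.0113), all from limma. Most calls of the whole array were lost in the first 2 of these settings. Median scaling called 0 probes higher and 1 lower, and signals under 1 set to 1 called 1 and 20. The main fit called 27 and 311, and neqc called 28 and 303. The other expressed probe of Mlh3, outside the repeat list and detected in 2 arrays, had a change of -0.13 (standard error 0.11, adjusted p = 0.67).

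The next probes by p were the overlapping pair in a B3 element of Timm8a2 on chromosome 14, which encodes a small chaperone of mitochondrial import. The 30 bases shown are common to both probes, as the capitals mark.
Timm8a2, B3: AACACCCTCTCCTGACCTAGACACAGAGCA
ILMN_2983631 had log2 signals of 6.98, 7.16, 7.26 and 7.60 in the controls and 6.74, 6.62, 6.89 and 6.66 in the Tex19.1-/- animals, and ILMN_1214839 had 7.52, 7.69, 7.49 and 8.44 against 6.86, 6.79, 7.26 and 7.24. The genotypes did not overlap at either probe, and control 4 was the highest animal at both. The changes were -0.52 and -0.75, with standard errors of 0.13 and 0.19 and adjusted p-values of 0.0433 and 0.057 from limma. With the animals paired by number in a replicate block, ILMN_1214839 was called lower as well (adjusted p = 0.00539 from limma), which made 2 SINE probes. ILMN_2983631 had an adjusted p of 0.0194 from limma in that fit. No label gives this pairing, and with it 470 of all expressed probes were called lower, against 311 without it.

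Genes of pachytene spermatocytes, the most advanced germ cells of these testes, were lower in the same animals. All 6 measured pachytene markers, Ldhc, Piwil1, Clgn, Spag6l, Adam5 and Tdrd6, were called lower by limma, and the mean log2 signal over them was 9.47 to 10.47 in the controls and 6.76 to 8.17 in the Tex19.1-/- animals. In whole testis, fewer cells of a type cannot be told apart from less RNA in each cell. The part of the pachytene cells in the lower signals of Mlh3 and Timm8a2 was not tested. Of 4 expressed early prophase markers 1, Spo11, was called lower, and 3 were lower at an unadjusted p under 0.05 in limma. No probe of Dmc1, Hormad1, Sycp1 or Sycp3 was detected in any array, which does not show that their RNA was absent. Of 24 expressed markers of spermatogonia, Sertoli, Leydig, myoid, endothelial, macrophage and erythroid cells 0 were called by limma. At an unadjusted p under 0.05, 4 of the 24 were higher and 0 lower, against 5.87% and 7.93% of all expressed probes. Of all expressed probes 1.63% were called lower and 0.141% higher.

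The other SINE probes of smallest p in each family did not pass the test. In the B2 family ILMN_2613175, an unnamed B3A probe, had a change of -0.36, and the B3 probe of Mtif2, a mitochondrial translation initiation factor, had one of 0.27. In the Alu family the PB1D10 probe of Gm5512 had 0.27, and the unnamed ILMN_1236511 (B1_Mus2) and ILMN_3161693 (B1F) had 0.23 and -0.32. In the B4 family they were the B4A probe of Proser3 (-0.37), the B4 probes of Catsperb, a subunit of the sperm calcium channel that was detected in 1 array (-0.29), and of Ctsc, which encodes cathepsin C (0.26), and the RSINE1 probe of the autophagy protease gene Atg4d (0.25). In the MIR family they were Avpr1a (0.26), Islr (0.32), E2f6 (0.17) and Arsi (0.13). The lowest adjusted p of these probes in limma was 0.115, at Proser3. ILMN_1236511 and the Atg4d probe were each detected in 1 Tex19.1-/- array and in 0 controls, and the Catsperb probe in 1 control only. Each was kept only through the genotype where its signal was higher. Proser3 had log2 signals of 6.75, 7.15, 6.76 and 6.83 in the controls and of 6.62, 6.48, 6.41 and 6.50 in the Tex19.1-/- animals, which do not overlap.

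The change at a SINE probe could be set beside the change at another probe of the gene it is annotated to. Of the 236 expressed SINE probes, 183 had a gene symbol and 177 of these a protein-coding gene, and for 125 probes of 119 genes another probe of that gene, outside the repeat list, was expressed as well, of which the one with the highest signal was used. Across these pairs, which share arrays, the correlation of the log2 changes was 0.33, and the changes had 1 sign in 71 pairs (56.8%). For the 48 pairs with both probes detected in all 8 arrays the correlation of changes was 0.43 and the same sign held in 62.5%, beside 0.77 and 75.5% over 2028 genes with a pair of such probes outside the list, which include the genes lowered most. None of these other probes was called at an adjusted p of at most 0.01 by limma.

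Single pairs were close in some genes and apart in others. Proser3 had changes of -0.37 and -0.35 at its B4A probe and its other probe, Prkx of 0.18 and 0.20, and Rpl23 of -0.05 and 0.004. The changes at Ctsc were 0.26 and 0.22 at its B4 probes and -0.09 at the other, which was detected in 1 array. Those at Atg4d were 0.25 at its RSINE1 probe, which was detected in 1 array at a mean of 5.67, and -0.11 at the other. Of the 206 SINE probes below the detection limit that have a gene symbol, 111 belong to a gene with another expressed probe, and 79 to one with a probe detected in all 8 arrays.

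**Figure D5:**
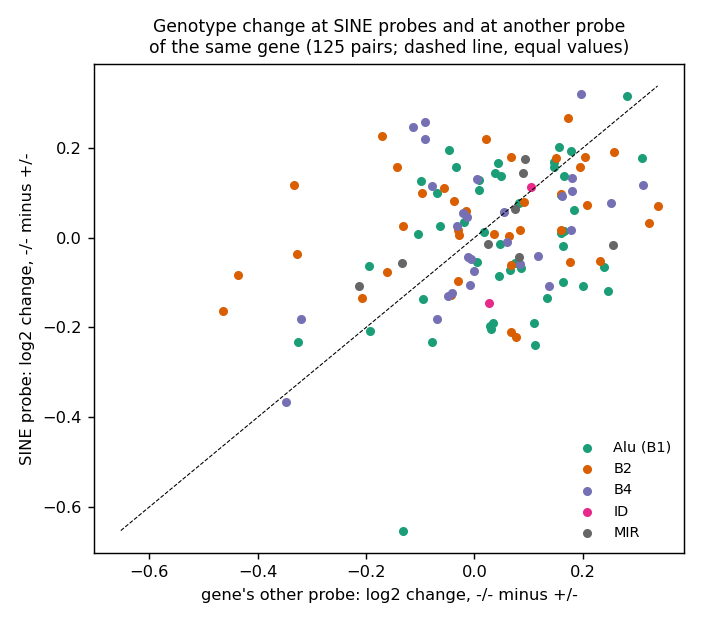
SINE probes (vertical axes) against the brightest expressed probe of the same gene outside the repeat list (horizontal axes) for 125 pairs, coloured by family, as log2 change, Tex19.1-/- minus control. The dashed line marks equal values, and Mlh3 is the lowest point, at -0.65 against -0.13.

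Genes that make, bind or silence SINE RNA were expressed and did not pass the test. Of 17 expressed genes of the RNA polymerase III machinery 0 were called at an adjusted p of at most 0.01 by limma, with 1 lower at an unadjusted p under 0.05, the largest subunit of the B box binding factor TFIIIC, Gtf3c1 (log2 change -0.55, standard error 0.14, adjusted p = 0.062). Tbp, Polr3k and the TFIIIC subunit genes Gtf3c4 and Gtf3c6 had changes of -0.20, -0.16, 0.13 and 0.13. All 6 genes of SINE RNA binding, processing and editing were expressed and 0 were called. Srp14 and Srp9, whose proteins bind B1 and Alu RNA, had changes of -0.35 and -0.28, the helicase gene Dhx9 -0.28, and the editing enzyme genes Adarb1 and Adar 0.21 and 0.25, with 2 lower and 1 higher at an unadjusted p under 0.05. Of 10 expressed silencing genes 0 were called and 1 was lower at an unadjusted p under 0.05, the corepressor gene Trim28 (-0.25, standard error 0.11, adjusted p = 0.3). The DNA methylation genes Dnmt3b, Uhrf1 and Dnmt1 had changes of 0.21, -0.21 and -0.08. The median change of the 3 lists was -0.02, -0.10 and -0.01, beside 0.02 over all expressed probes. Of all expressed probes 1.63% were called lower and 0.141% higher. At an unadjusted p under 0.05 in limma, 7.93% of all expressed probes were lower and 5.87% higher.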

How the data were processed

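Illumina Mouse WG-6 v2.0 Beadchips measured RNA of 4 Tex19.1-/- and 4 Tex19.1+/- testes, called biological replicates by the labels. The authors deposited linear signal intensities after background subtraction with BeadStudio, whose version is not given in the sources used here, and these can be below 0. Detection p-values and a table of log2 values from lumi, log-transformed and quantile-normalized, were deposited as well, and the log2 values served as an alternative. From the intensities, a constant was added to each array so that its lowest value was 1, and log2 values were quantile-normalized in R 4.3.3 with limma 3.58.1. They differed from the deposited log2 values by at most 0.0144. Background subtraction leaves dim probes, as most SINE probes are, near the noise, where fold changes are compressed by the shift. A probe was kept where any array had a detection p under 0.01, which left 19089. The genotypes were compared by lmFit and eBayes with no block, with Benjamini-Hochberg adjustment over all kept probes and calls at an adjusted p of at most 0.01. The number of arrays limits the precision, and each array detected 13720 to 15876 probes.

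The members and lists were chosen with earlier results of these data known. Probes named are those called, the 4 of smallest p and the 3 of highest signal in each family, all of B1_Mm, B2_Mm1a, B2_Mm1t, B2_Mm2 and ID, and in each gene list those called and the 4 of smallest p; other genes named in the lists, those of the sequences printed and the pairs of probes described were chosen after their values were seen. A gene of a list is given by its kept probe of highest signal. Means over families and elements have no test. Gene names come from the platform annotation, updated with RefSeq (GRCm38.p6), and 389 of 553 SINE probes have 1. Probe sequences come from the study's repeat probe list and promoter windows from RefSeq. Genome positions, exons and copy numbers of the probes were not analysed here. After subtraction of genotype means, animals with the same replicate number correlated at 0.21, 0.52, 0.10 and 0.23 over the kept probes. On this basis, the data alone, the numbers were treated as pairs in the replicate block and in the differences by number. The main comparison had no pairing. Tex19.1-/- animals 3 and 4 correlated at 0.45 and 0.23 with a control of another number, no lower than with that of their own number. The alternatives tried were the deposited table, 4 other ways of scaling or background treatment, 2 other detection filters, a trend with robust eBayes, the replicate block, each animal left out, medians over probes, and probes left out whose gene was called lower elsewhere. Figures were drawn with matplotlib 3.10.9.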

Additional observations from a re-analysis of the deposited data

Results flagged for a closer look

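An animal stood far from the other 3 of its genotype in 4 of 84 groups of 4 values examined, and chance alone flags about 1 group in 20. Tex19.1-/- animal 3 was low at both of the brightest B2_Mm2 probes, at 11.28 for ILMN_2858523 against 11.64 to 11.70 in the others, and at 9.65 for Irgm1 (ILMN_2804037) against 10.05 to 10.12. Control 2 was low at the RSINE1 probe of Pdp2 (ILMN_3134598), at 7.35 against 8.30 to 8.46. Tex19.1-/- animal 2 had a mean over all expressed SINE probes of 6.58, against 6.63 to 6.64 in the others.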

How the results depend on the processing

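No count changed with the deposited table. The count of 0 SINE probes called higher held under every alternative run. The count of 1 called lower was 0 with median scaling (Mlh3 adjusted p = 0.6), with signals under 1 set to 1 (0.0644) or with neqc (0.0113), 2 with the replicate block (48 higher and 470 lower over all probes, against 27 and 311), and 0 to 1 with an animal left out. Over all probes, median scaling called 0 higher and 1 lower, signals under 1 set to 1 called 1 and 20, and neqc 28 and 303. At an unadjusted p under 0.05, the 8 higher probes were 5 with cyclic loess, 13 with signals under 1 set to 1, 15 without a detection filter, 17 with the replicate block and 4 to 12 with an animal left out, and the 10 lower were 1 with median scaling, 16 without a filter and 5 to 10 with an animal left out. The lowest of these counts, 4 and 5, came without Tex19.1-/- replicate 3. No other SINE probe was called with the replicate block. The median change of 0.018 was 0.098 with median scaling and 0.064 over the 127 SINE probes detected in every array of a genotype. It was 0.0020 with cyclic loess, -0.0037 without a detection filter, and 0.0040 to 0.046 with an animal left out. Median scaling gave 0.10 for all SINE probes, 0.12 for Alu, 0.089 for B2, 0.092 for B4, 0.098 for ID and 0.10 for MIR, below the 0.14 of all probes. Signals under 1 set to 1 gave -0.028 for all SINE, -0.054 for Alu, -0.020 for B4 and 0.067 for MIR. The stricter filter gave 0.076 for B4 and 0.077 for MIR. Medians over probes gave 0.054 for all SINE, 0.13 for Alu, 0.11 for ID and 0.010 for MIR. The cause of these shifts was not tested. The trend and the block do not enter family means. Leaving out probes of genes called lower elsewhere removed 0 probes. Of 35 named probes tested, 12 changed sign under at least 1 alternative, none of them called. Dim signals near background limit most SINE probes.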
